A study of Mus musculus with 15 samples.

Results

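RAW264.7 cells, a mouse macrophage line, were activated with lipopolysaccharide (LPS) in the presence of 2 hydroxylated lipids given together, and their gene expression was set against that of activated cells that received vehicle alone. The comparison rests on 6 of the 15 arrays of the study, chosen by their titles: 3 arrays of the combined treatment and 3 arrays of the vehicle treatment. Combined cells were pre-incubated for 30 min with 2.5 µM 13-HDHEA plus 2.5 µM 16-HDHEA, and vehicle cells with 0.1% ethanol. Both groups held 0.1% ethanol, both then received 1.0 µg/mL LPS, and RNA was taken after 24 h. The other 9 arrays were of cells without LPS and of activated cells given 5.0 µM of 13-HDHEA or of 16-HDHEA alone, 3 arrays each. Replicates 1, 2 and 3 were separate experiments, each with its own identifier in the labels, and each experiment held 1 array of every group. All cells were of 1 established line, and the comparison holds no primary macrophages and no combined treatment without LPS.

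HDHEAs are hydroxylated forms of docosahexaenoyl ethanolamide, an endocannabinoid-like amide that joins the fish oil fatty acid docosahexaenoic acid to ethanolamine. Cyclooxygenase-2, the enzyme encoded by Ptgs2 that makes prostaglandins from arachidonic acid in activated macrophages, can place the hydroxyl group on this lipid, and 13-HDHEA and 16-HDHEA are positional isomers that differ in the carbon that carries it. LPS, which coats Gram-negative bacteria, is sensed through Toll-like receptor 4, whose signalling runs through NF-kB to cytokines and chemokines and through interferon regulatory factors to type I interferon and the interferon-stimulated genes. The comparison asks which genes of the activated cell differ when both isomers are present.

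All 6 arrays carried the macrophage markers. Each of the 10 macrophage markers lay above the array floor, here the mean 40th percentile of all probe sets in a group (3.17 in vehicle and 3.18 in combined arrays), with medians of 11.23 in vehicle and 11.28 in combined arrays on the log2 scale of the deposited values. Of 8 fibroblast markers 7 lay above the floor in each group, with medians of 3.40 and 3.39. Of the 7 lymphocyte markers on the array, 2 lay above it in vehicle and 1 in combined arrays, and 1 of 7 neutrophil markers did so in both (S100a8, at 4.96 and 5.12). The 8 epithelial and endothelial markers all lay above the floor in both groups, with medians of 3.74 and 3.77. Cdh5 was the highest of them, at 5.86 and 5.73. Summed log2 values of the macrophage list ran from 106.9 to 108.6 in vehicle and from 107.1 to 108.5 in combined arrays, so that the groups overlapped. The lowest and highest sums were 27.49 and 27.83 in vehicle and 26.47 and 28.02 in combined arrays for fibroblast markers, and 21.20 and 22.85 against 21.71 and 23.09 for neutrophil markers.

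No gene passed the test between combined and vehicle cells. Of 15468 genes tested with limma, 0 were higher and 0 were lower at an adjusted p under 0.05 (0% of the genes tested), and the smallest adjusted p was 1. An unadjusted p under 0.05 was reached by 539 genes (3.48%), 240 of them higher and 299 lower in combined cells. With the experiment as a block in the same fit, limma called 0 genes as well, with a smallest adjusted p of 0.769 and an unadjusted p under 0.05 in 791 genes (5.11%). Over all 41345 probe sets, named or not, limma called 0 without the block and 0 with it, with an unadjusted p under 0.05 in 1815 and 2240. The same fit called 4616 genes for LPS with vehicle against no LPS, 1 gene for 13-HDHEA alone and 0 for 16-HDHEA alone.

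The measured differences were small, and the intervals bound what the arrays could have missed. The median difference over the genes tested was -0.00379 on the log2 scale, where 1 is a 2-fold difference, and the median size regardless of sign was 0.0742. 7506 genes were nominally higher and 7962 (51.5%) nominally lower in combined cells. No gene differed by more than 1, and 125 differed by more than 0.5. The median standard error was 0.126, and the 95% interval of the difference lay within 1 of zero for 15266 genes (98.7%) and within 0.5 of zero for 12015 (77.7%). Intervals are those of the fit without the experiment block unless the block is named; the block leaves the difference as it is and takes the spread between experiments out of its error. A 2-fold difference in either direction was thus outside the interval for nearly every gene, while a difference of 0.5 in one direction or the other remained inside it for the genes outside those 77.7%.

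Genes with low array values had the largest differences. Of the 6286 genes with a mean under 5 in vehicle arrays, 114 differed by more than 0.5, and the median size was 0.111. For the 5517 genes between 5 and 8, the count was 9 and the median size 0.0708. For the 3665 genes at 8 or above, 2 differed by more than 0.5, the median size was 0.0445, and the 95% interval lay within 0.5 of zero for 95.5% of them. The share with an unadjusted limma p under 0.05 was 6.16%, 2.18% and 0.873% in these classes. The median standard error was 0.153, 0.119 and 0.0916 in these classes, so differences at low values are less firm than at higher levels. RMA values of dim probe sets lie near background, which can also compress a real difference.

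**Figure D1:**
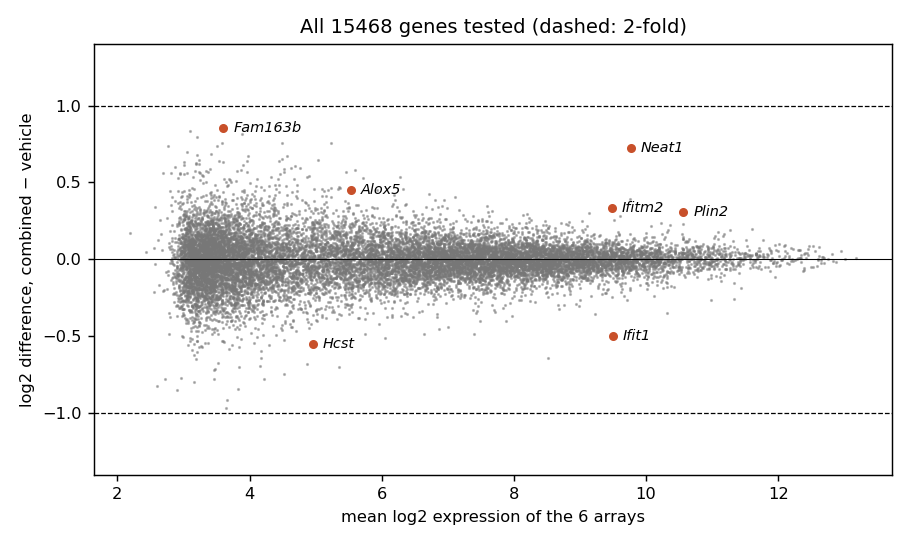
Each point is 1 of the 15468 genes tested, with the mean log2 expression of the 6 arrays on the x axis and the log2 difference, combined minus vehicle, on the y axis; dashed lines mark a 2-fold difference. No point lies beyond the dashed lines, and the scatter around zero is widest at low values.

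Across genes, the differences of one experiment bore almost no relation to those of another. Across the 15468 genes, the difference of combined from vehicle in experiment 1 correlated with that in experiment 2 at a Pearson r of -0.0215 and with that in experiment 3 at -0.0096, and experiments 2 and 3 correlated at 0.0102. These are correlations across genes, which are not independent replicates, and each experiment has its own vehicle array. The SD of the differences was 0.255, 0.254 and 0.243 in experiments 1, 2 and 3. The sign was the same in each experiment for 3500 genes (22.6%), of which 1686 were higher and 1814 lower, and the 3 combined arrays did not overlap the 3 vehicle arrays for 993 genes (6.42%). Among the 10795 genes above the 60th percentile in at least 3 arrays, the Pearson values were -0.0256, -0.0185 and 0.00961.

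**Figure D2:**
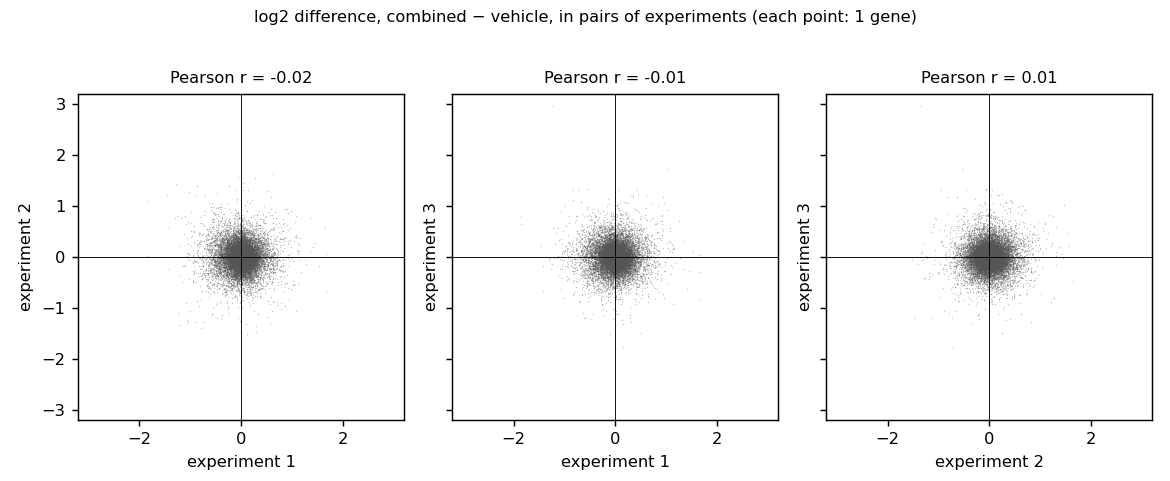
Each panel plots, for the 15468 genes tested, the log2 difference, combined minus vehicle, of one experiment (x axis) against that of another (y axis), with each gene a point and the Pearson r above the panel. The clouds are round in all 3 panels, and r lies between -0.0215 and 0.0102.

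On the first 2 principal components, arrays grouped by experiment rather than by treatment. In a principal component analysis of the 6 arrays, the first component carried 31.1% of the variance and placed both arrays of experiment 1 on its negative side, at -10.45 for vehicle and -22.08 for combined. The 4 arrays of experiments 2 and 3 lay on the positive side, from 1.89 to 11.91. Both groups spanned this component, and the second one (21.7%) placed both arrays of experiment 2 below zero. The third (16.6%) placed the vehicle arrays of experiments 1, 2 and 3 at -3.324, -15.76 and -0.5975. The combined arrays lay at 5.065, 14.37 and 0.2378 on it. Its sign thus followed treatment, with the widest gap in experiment 2 and almost none in experiment 3.

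Tnf, Il1b and Il6 had nearly the same values with and without the combined HDHEAs, while the intervals of many other cytokines were wide. Of 25 pro-inflammatory cytokines, 23 were tested and 0 passed, with 8 nominally higher, 15 nominally lower and a median difference of -0.08 beside a median of -0.00379 over all genes tested. The 95% interval lay within 0.5 of zero for 10 of the 23 and within 1 of zero for 21. Tnf, the early macrophage cytokine that acts through the TNF receptors, measured 12.65, 12.49 and 12.41 in the vehicle arrays of experiments 1, 2 and 3 and 12.54, 12.43 and 12.42 in the combined arrays. The groups overlapped, and the difference was -0.05 (95% interval -0.24 to 0.13, limma adjusted p = 1). Il1b, the precursor of interleukin-1 beta, measured 12.39, 12.30 and 12.35 with vehicle and 12.43, 12.13 and 12.49 with both compounds. Its combined arrays lay on both sides of the vehicle arrays, with a difference of 0.01 (-0.21 to 0.22). Il6, a cytokine that drives the acute phase response, measured 10.88, 10.78 and 10.79 with vehicle and 10.75, 10.53 and 10.94 with both compounds. The third experiment had the highest of the 6 values and the second the lowest, both in combined arrays, and the difference was -0.07 (-0.36 to 0.21). For scale, the vehicle arrays exceeded those without LPS by 2.55 for Tnf, 8.92 for Il1b and 8.26 for Il6.

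In the fit without the experiment block, Tnfsf15 and Clcf1 had the smallest p among the cytokines. Tnfsf15, a TNF-family ligand that costimulates lymphocytes, measured 7.95, 8.09 and 7.97 with vehicle and 7.71, 7.78 and 7.64 with both compounds. All 3 combined arrays lay below all 3 vehicle arrays, as for 6.42% of all genes tested, and the difference of -0.29 (95% interval -0.52 to -0.06) did not pass after adjustment (limma adjusted p = 1). Clcf1, a cytokine of the interleukin-6 family, differed by -0.30 (-0.54 to -0.06), and Il18, an inflammasome-processed cytokine, by -0.22 (-0.47 to 0.04). Il19, of the interleukin-10 family, differed by 0.27 (-0.0029 to 0.54). With the experiment as a block the Il19 interval was 0.07 to 0.47, at a limma adjusted p of 0.94. Tnfsf15 and Clcf1 were the 2 of 23 cytokines whose groups did not overlap. The values of Clcf1 and Il19 lay between 3.51 and 4.08 on every array of both groups.

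Chemokines, the secreted proteins that attract leukocytes, showed no lean to either side. Of 21 on the list, 19 were tested, 0 passed, 9 were nominally higher and 10 nominally lower, and the median difference was 0.00. Ccl2, the main monocyte attractant, measured 12.31, 12.29 and 12.22 with vehicle and 12.32, 12.21 and 12.31 with both compounds. These ranges overlapped almost fully, with a difference of 0.00 (95% interval -0.17 to 0.18). Cxcl3, a neutrophil attractant, differed by 0.40 (-0.08 to 0.88), and its combined array was higher in experiments 1 and 2 and lower in experiment 3. Cxcl11, an interferon-induced attractant of T cells, differed by -0.25 (-0.94 to 0.44), and Ccl12 by -0.10 (-0.29 to 0.09).

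Enzymes of nitric oxide and prostaglandin output also missed the threshold. Nos2, the inducible nitric oxide synthase, measured 9.60, 9.15 and 9.47 with vehicle and 9.58, 8.72 and 8.87 with both compounds. The combined array was lower in each experiment, by 0.02 in experiment 1, where the pair was almost equal, and by 0.44 and 0.60 in the others, and the groups overlapped. The mean difference was -0.35 (95% interval -0.80 to 0.09, limma adjusted p = 1), a 1.28-fold lower level, and with the experiment as a block the interval was -0.71 to -0.0033 at a limma adjusted p of 0.97. Ptgs2 measured 12.47, 12.19 and 12.22 with vehicle and 12.48, 12.27 and 12.31 with both compounds, with a difference of 0.06 (-0.27 to 0.39). Of the 24 nitric oxide, oxidant and host defence genes, 20 were tested and 0 passed, with 9 nominally higher, 11 nominally lower and a median of -0.02. Slc7a2, which imports the arginine that Nos2 uses, differed by -0.19 (-0.42 to 0.05). With the block its interval was -0.34 to -0.04, at a limma adjusted p of 0.94. Arg1, the arginase that uses the same substrate, measured 3.26, 3.14 and 3.31 with vehicle and 3.46, 3.65 and 3.52 with both compounds. Its groups did not overlap and differed by 0.31 (0.08 to 0.53), but all 6 values lay within 0.5 of the floor.

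Genes that restrain inflammation were as close between the groups. Il10, the main anti-inflammatory cytokine, measured 3.49, 3.64 and 3.63 with vehicle and 3.59, 3.58 and 3.77 with both compounds, near the floor in both, with a difference of 0.06 (95% interval -0.21 to 0.33). Il1rn, the interleukin-1 receptor antagonist, measured 10.21, 10.01 and 9.78 against 10.12, 9.70 and 9.66, lower with both compounds in each experiment but overlapping, with a difference of -0.17 (-0.58 to 0.24). Of 21 anti-inflammatory and feedback genes tested, 0 passed, 14 were nominally higher and 7 nominally lower, with a median of 0.02. Socs3, an inhibitor of JAK-STAT signalling, differed by 0.14 (-0.10 to 0.39), Irak3, an inhibitor of Toll-like receptor signalling, by 0.09 (-0.07 to 0.24), and Dusp5, a phosphatase of ERK, by 0.21 (-0.14 to 0.55). Among 17 NF-kB subunits and targets tested, 0 passed and the median was 0.00, with Nfkbie, an NF-kB inhibitor, at -0.16 and Ier3, an early response gene, at 0.19. The 20 genes of LPS receptor and adaptors that were tested had a median of 0.01, 0 passed, and Traf6, a ubiquitin ligase of that pathway, differed by -0.12 (-0.34 to 0.09).

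**Figure D3:**
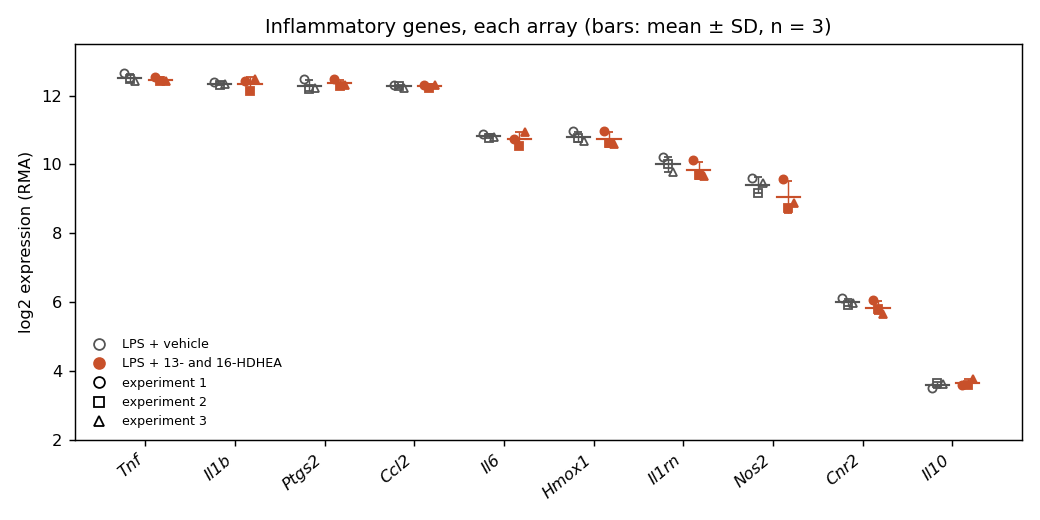
Log2 expression on each of the 3 vehicle arrays (open symbols) and 3 combined arrays (filled symbols) for 10 genes of inflammation, with the experiment given by the symbol and bars for the mean ± SD. The groups overlap for every gene drawn, and Nos2 has the widest gap between means (9.41 against 9.06).

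The interferon-stimulated genes leaned to lower values more than any other list, although none of them passed. The list held 40 symbols, 36 had a probe set and all 36 were tested. 31 were nominally lower and 5 nominally higher in combined cells, beside 51.5% of all genes nominally lower, and limma called 0 with or without the experiment block. The median difference was -0.16 beside -0.00379 over all genes tested, and it was -0.16, -0.19 and -0.14 in experiments 1, 2 and 3. 21 members were lower in each experiment, beside 11.7% of all genes, and 3 were higher in each. The groups did not overlap for 6 of 36, beside 6.42% of all genes, and 5 of these 6 were lower in combined cells. Without the block 0 of the 36 reached an unadjusted limma p under 0.05, and with it 8 did (22.2%, beside 5.11% of all genes), all 8 of them lower, beside 2.79% of all genes. Genes of one pathway are not independent measurements, and the lean of this list was known from earlier results of these data when it was chosen.

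The list mean in every array shows the size of this lean against the spread between experiments. It was 8.30, 8.55 and 8.58 in the vehicle arrays and 8.15, 8.35 and 8.48 in the combined arrays of experiments 1, 2 and 3. The combined array was lower in each experiment, and the groups overlapped because experiment 1 lay below the others in both. Without LPS the mean was 6.36, 6.69 and 6.36, so both groups lay far above the level of resting cells.

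In the fit without the experiment block, Ifit1, Ifit2, Zbp1 and Parp14 had the smallest p values of the list. With the block, Ifit1, Cmpk2, Gbp5 and Ifit2 had them. Cmpk2 was lower in each experiment and differed by -0.35 (95% interval -0.89 to 0.20). With the block its interval was -0.54 to -0.15, at a limma adjusted p of 0.787. Ifit1 (probe set 17358832), which binds viral RNA that lacks a host cap, measured 9.31, 9.91 and 10.01 with vehicle and 8.78, 9.35 and 9.61 with both compounds. Its combined array was lower by 0.53, 0.56 and 0.40 in the 3 experiments, although the highest combined array lay above the lowest vehicle array. The difference was -0.50 (95% interval -1.07 to 0.08, limma adjusted p = 1), 1.41-fold lower. With the experiment as a block the interval was -0.76 to -0.23 and the limma adjusted p 0.787. Ifit2, of the same family, measured 6.28, 6.70 and 6.48 with vehicle and 6.01, 6.21 and 6.30 with both compounds. It was lower in each experiment, with an overlap of the lowest vehicle and highest combined array and a difference of -0.31 (-0.67 to 0.04, and -0.51 to -0.11 with the block).

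Zbp1, a sensor of Z-form nucleic acid that can trigger necroptosis, measured 9.09, 8.99 and 9.33 with vehicle and 8.91, 8.58 and 9.02 with both compounds. The difference was -0.30 (95% interval -0.63 to 0.03, and -0.56 to -0.04 with the experiment as a block), and only the third combined array reached into the vehicle range. Parp14, an ADP-ribosyltransferase induced by interferon, measured 10.03, 10.16 and 10.13 with vehicle and 9.95, 9.81 and 9.97 with both compounds. Its groups did not overlap, and the difference was -0.19 (-0.43 to 0.04, and -0.42 to 0.04 with the block). Isg15, a ubiquitin-like modifier, and Bst2, which tethers budding virus particles, also did not overlap, with differences of -0.14 (-0.55 to 0.27) and -0.18 (-0.41 to 0.05). Trim30a, a tripartite motif protein, was among the members higher in each experiment, at 0.15 (-0.07 to 0.37), and its groups did not overlap either.

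Many members of the list carry a match to the core of the interferon-stimulated response element, a promoter site through which type I interferon acts, in the 250 bases before their start site. The letters searched were GAAA, then 2 bases of any kind, then GAAA, on both strands, in RefSeq promoter sequence of the mouse build GRCm38.p6, and overlapping matches were counted apart. A match was present in 15 of the 26 tested members with a promoter entry (57.7%), in 377 of 12028 tested genes with an entry (3.13%) and in 936 of all 27025 genes of the table (3.46%). Among members lower in each experiment it was present in 7 of 15 (46.7%), and among the other members in 8 of 11 (72.7%). A match describes these letters and is no evidence of binding. The windows of those 7 members are printed with 15 bases on either side, followed by that of Trim30a, higher in each experiment, and that of Ifitm2, which belongs to the genes with the smallest p and is described with them. They are read 5′ to 3′ on the gene's own strand, and capitals mark the match in either orientation.
Ifit1: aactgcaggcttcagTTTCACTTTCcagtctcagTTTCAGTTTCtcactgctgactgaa
Gbp5: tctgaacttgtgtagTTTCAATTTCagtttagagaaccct
Rsad2: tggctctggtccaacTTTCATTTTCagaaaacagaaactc
Igtp: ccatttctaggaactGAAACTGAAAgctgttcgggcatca
Bst2: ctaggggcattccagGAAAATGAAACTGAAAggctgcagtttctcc
Irgm1: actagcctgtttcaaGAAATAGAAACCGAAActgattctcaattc
Isg15: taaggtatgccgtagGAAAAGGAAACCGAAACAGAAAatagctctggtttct
Trim30a: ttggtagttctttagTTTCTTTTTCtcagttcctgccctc
Ifitm2: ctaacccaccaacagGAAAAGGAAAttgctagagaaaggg

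The Ifit1 window lies at chr19:34640770-34640828 on the plus strand and holds 2 matches. The Isg15 window lies at chr4:156200860-156200911 on the minus strand with 3 overlapping matches, and the Bst2 window at chr8:71537572-71537617 on the minus strand with 2. The Gbp5 window is at chr3:142496754-142496793 (plus), that of Rsad2 at chr12:26456548-26456587 (minus), that of Igtp at chr11:58199507-58199546 (plus) and that of Irgm1 at chr11:48871421-48871465 (minus). The Trim30a window is at chr7:104465205-104465244 (minus) and the Ifitm2 window at chr7:140955983-140956022 (minus). All of them lie upstream of the annotated start of the gene. Gbp5, a guanylate-binding protein, differed by -0.40 (95% interval -1.25 to 0.44, and -0.65 to -0.15 with the experiment as a block). Within experiments 1, 2 and 3 its differences were -0.57, -0.40 and -0.24. Experiment 3 had the highest Gbp5 value of both groups, 8.64 with vehicle and 8.40 with both compounds. Without the block, leaving out only its vehicle array gave -0.12, and leaving out only its combined array gave -0.77. Rsad2, the antiviral enzyme viperin, differed by -0.24 (-0.87 to 0.39), and the immunity-related GTPases Igtp and Irgm1 by -0.20 (-0.61 to 0.21) and -0.14 (-0.41 to 0.12).

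**Figure D4:**
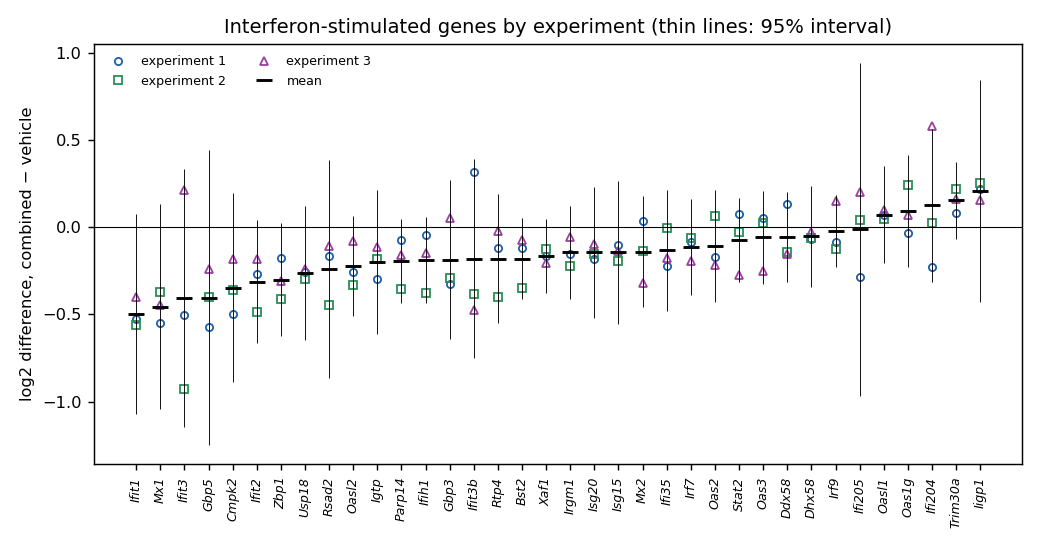
Log2 difference, combined minus vehicle, for the 36 interferon-stimulated genes tested, ordered by the mean difference, with a symbol for each of the 3 experiments, a short bar for the mean and a thin line for the 95% interval. 31 of the means lie below zero. Every interval drawn includes zero; they come from the fit without the experiment block, and with the block 8 do not.

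Antigen presentation and costimulation genes had a median close to that of all genes. Of 18 tested, 0 passed, 6 were nominally higher and 12 nominally lower, and the median was -0.01. In experiments 1, 2 and 3 the median was 0.01, -0.12 and -0.08. Lower in each experiment were 6 of the 18 (33.3%, beside 11.7% of all genes), and 2 were higher in each. Psmb10, a subunit of the immunoproteasome, measured 9.59, 9.76 and 9.83 with vehicle and 9.45, 9.52 and 9.59 with both compounds. The groups touched without overlap, and the difference was -0.21 (95% interval -0.43 to 0.01). Tap1, which carries peptides into the endoplasmic reticulum, differed by -0.24 (-0.55 to 0.06). With the experiment as a block these intervals were -0.35 to -0.06 and -0.40 to -0.08, at adjusted p values of 0.903. Ciita, the master regulator of class II genes, differed by 0.22 (-0.05 to 0.48) and was lower in experiment 2, and the class II gene H2-Eb1 differed by 0.19 (-0.10 to 0.49).

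Several genes of lipid storage and oxidation had higher values with both compounds in each experiment, and none passed. This held for 4 of 20 PPAR targets and fatty acid oxidation genes and 6 of 20 fatty acid synthesis and lipid storage genes. The share over all genes tested was 10.9%. Lower in each experiment were 1 and 2 members of these lists, beside 11.7% of all genes. Plin2 (probe set 17426981), which coats lipid droplets, measured 10.41, 10.63 and 10.19 with vehicle and 10.70, 10.87 and 10.59 with both compounds. The combined array was higher by 0.29, 0.24 and 0.40 in the 3 experiments, although 1 vehicle array lay above the lowest combined array. The difference was 0.31 (95% interval 0.02 to 0.60, limma adjusted p = 1, and 0.787 with the experiment as a block), 1.24-fold higher. Hilpda, an inhibitor of triglyceride breakdown on droplets, measured 6.80, 7.06 and 6.36 with vehicle and 7.13, 7.40 and 6.73 with both compounds, higher in each experiment and overlapping, at 0.35 (-0.20 to 0.89, and 0.09 to 0.60 with the block). Cpt1a, which commits fatty acids to oxidation in mitochondria, measured 6.72, 6.74 and 6.49 against 6.97, 7.04 and 6.67, at 0.24 (-0.01 to 0.50, and 0.06 to 0.43 with the block).

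Other members of these lists differed in both directions. Lpin1, a phosphatidate phosphatase on the route to triglycerides, differed by 0.26 (95% interval -0.06 to 0.58) without overlap, while Dgat2, which makes triglycerides, differed by -0.26 (-0.66 to 0.14). The nuclear receptors Rxra and Nr1h3, the latter being LXR alpha, differed by -0.25 (-0.57 to 0.07) and -0.30 (-0.65 to 0.06), each lower in every experiment. With the experiment as a block these intervals were -0.48 to -0.02 and -0.54 to -0.05, at limma adjusted p values of 0.94. Of 20 PPAR targets and fatty acid oxidation genes tested, 0 passed, 13 were nominally higher and 7 lower, with a median of 0.01. Of 20 genes of fatty acid synthesis and lipid storage tested, 0 passed, 15 were nominally higher and 5 lower, with a median of 0.03. The 9 LXR targets tested had a median of 0.05 and the 17 cholesterol genes 0.00, with 0 called in both. Lpcat3, which places polyunsaturated fatty acids into phospholipids, differed by 0.09 and Mvk, mevalonate kinase, by -0.24 (-0.52 to 0.05). Stard4, a cholesterol carrier, differed by 0.16 (-0.08 to 0.39).

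Alox5 and Ltc4s, 2 enzymes of leukotriene synthesis with the smallest p of the eicosanoid list, were higher with both compounds in each experiment, and neither passed. Alox5 (probe set 17470031), the 5-lipoxygenase that starts leukotriene synthesis, measured 5.53, 5.07 and 5.34 with vehicle and 5.99, 5.42 and 5.88 with both compounds. The second combined array lay inside the vehicle range, and the difference was 0.45 (95% interval 0.02 to 0.88, limma adjusted p = 1, and 0.787 with the experiment as a block). As the mean of its 2 probe sets, Alox5 differed by 0.30. Cells without LPS had a higher Alox5 level, 7.83 ± 0.309 (SD, n = 3), than vehicle cells, 5.31 ± 0.230. Ltc4s, which joins glutathione to leukotriene A4, measured 5.10, 4.95 and 4.86 with vehicle and 5.49, 5.20 and 5.19 with both compounds. Its groups did not overlap, and they differed by 0.32 (0.04 to 0.60). Pla2g7, which breaks down platelet-activating factor, differed by 0.25 (-0.09 to 0.59, and 0.04 to 0.46 with the block). Cbr1, a carbonyl reductase that can reduce prostaglandins, differed by -0.25 (-0.56 to 0.06, and -0.50 to -0.004 with the block). As the mean of its 2 probe sets, Cbr1 differed by -0.15. With the block the limma adjusted p was 0.94 for Pla2g7 and 0.97 for Cbr1. Over the 23 eicosanoid and oxylipin genes tested, 0 passed, 14 were nominally higher, 9 nominally lower, and the median was 0.02. The combined array was higher in each experiment for 4 of the 23, beside 10.9% of all genes tested.

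**Figure D5:**
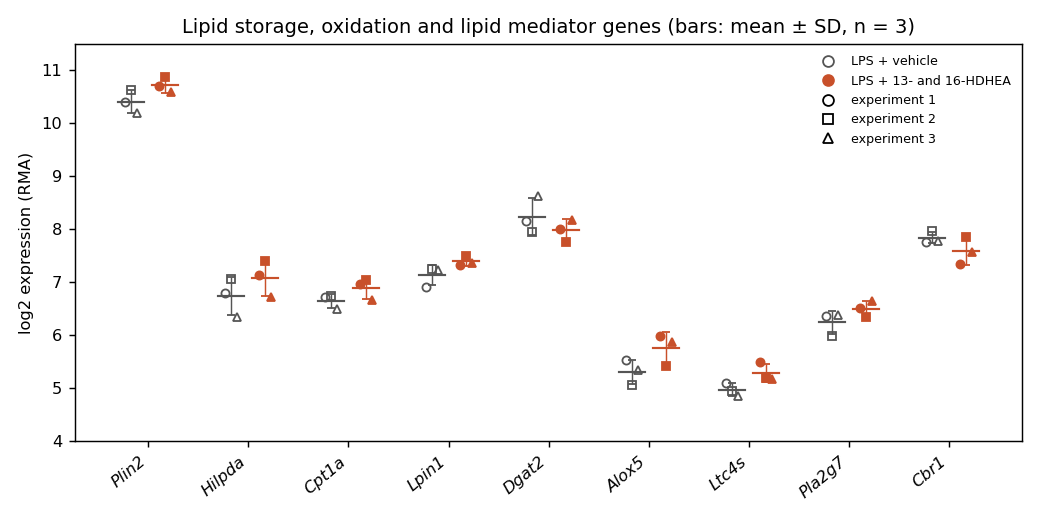
Log2 expression on each of the 3 vehicle arrays (open symbols) and 3 combined arrays (filled symbols) for 9 genes of lipid storage, fatty acid oxidation and lipid mediators, with bars for the mean ± SD. Plin2, Hilpda, Cpt1a, Lpin1, Alox5, Ltc4s and Pla2g7 have the higher mean in combined cells, and Dgat2 and Cbr1 the lower one.

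Receptors and enzymes of the N-acyl ethanolamines, the family to which these compounds belong, differed little. Cnr2, the cannabinoid receptor of immune cells, measured 6.11, 5.90 and 5.97 with vehicle and 6.05, 5.81 and 5.66 with both compounds. It was lower in each experiment and overlapped, with a difference of -0.15 (95% interval -0.39 to 0.09). Gpr55, a receptor for lysophosphatidylinositol, differed by 0.33 (0.02 to 0.64), but the combined array was lower in experiment 2. Abhd4, a lipase on a route to N-acyl ethanolamines, differed by 0.10 (-0.08 to 0.29) and Plaat3, a phospholipase and acyltransferase, by -0.17 (-0.40 to 0.07). Of 25 members tested, 0 passed, 14 were nominally higher, 11 nominally lower, and the median was 0.00.

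Respiration genes were measured tightly and lay close to zero, and genes of glycolysis and of the antioxidant response had medians near zero with wider intervals. For all 23 respiration and TCA cycle genes tested the 95% interval lay within 0.5 of zero, and the median was 0.01, with Sdhd, a subunit of succinate dehydrogenase, at -0.12 (-0.31 to 0.07). The 17 glycolysis and hypoxia genes tested had a median of 0.03, with 15 intervals within 0.5 of zero, and Bnip3, a hypoxia-induced mitophagy receptor, differed by 0.24 (-0.14 to 0.62). Hmox1, heme oxygenase 1 and a target of NRF2, measured 10.97, 10.76 and 10.67 with vehicle and 10.98, 10.62 and 10.59 with both compounds. The groups overlapped, and the difference was -0.07 (-0.35 to 0.21). The 20 NRF2 and antioxidant genes tested had a median of 0.00, 10 nominally higher and 10 lower, and 18 intervals within 0.5 of zero, with Nfe2l2, the gene of NRF2, at 0.09 and Gstm1, a glutathione transferase, at -0.16. Limma called 0 genes in each of these lists.

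Proliferation genes, stress genes and lysosomal genes did not pass either. Of 34 cell cycle and DNA replication genes tested, 22 were nominally higher and 12 lower, with a median of 0.05 that was -0.06, 0.13 and 0.05 in experiments 1, 2 and 3 and so changed sign between experiments. Ccnb2, a mitotic cyclin, differed by 0.33 (95% interval -0.27 to 0.93). With the experiment as a block its interval was 0.04 to 0.63, at a limma adjusted p of 0.94. Within experiments 1, 2 and 3 the Ccnb2 differences were 0.08, 0.58 and 0.33. Without the block, and with the paired vehicle array kept, the difference ran from 0.03 without the combined array of experiment 2 to 0.61 without that of experiment 1. Top2a, the topoisomerase of dividing cells, differed by 0.18 (-0.19 to 0.55). Of 26 unfolded protein and integrated stress response genes tested, 9 were nominally higher and 17 lower, with a median of -0.05, and 10 were lower in each experiment, beside 11.7% of all genes. Dnajb9 and Hspa5, chaperones of the endoplasmic reticulum, differed by -0.20 (-0.46 to 0.05) and -0.15 (-0.32 to 0.03). Herpud1, which serves the degradation of misfolded proteins, differed by -0.17 (-0.39 to 0.05), and Xbp1, a transcription factor of this response, by -0.12 (-0.29 to 0.04). Hsph1, a heat shock protein, differed by -0.15 (-0.40 to 0.11), and the 9 heat shock genes tested had a median of -0.03.

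Of 25 lysosome and autophagy genes tested, 8 were nominally higher and 17 lower, with a median of -0.03, and every one of their intervals lay within 0.5 of zero. The cathepsins Ctsl and Ctss differed by 0.16 (95% interval -0.10 to 0.43) and -0.15 (-0.40 to 0.10). Clcn7, a chloride-proton exchanger of lysosomes that osteoclasts need, measured 9.18, 9.01 and 9.19 with vehicle and 8.85, 8.89 and 8.85 with both compounds. The groups did not overlap and differed by -0.26 (-0.46 to -0.06), while the 13 osteoclast genes tested had a median of 0.00. The 18 alternative activation genes had a median of 0.00, and Mgl2, a lectin of such macrophages, differed by 0.28 (-0.01 to 0.57). The 21 inflammasome and pyroptosis genes had a median of -0.01, with Naip5, a sensor of flagellin, at -0.19 (-0.47 to 0.09). The 17 apoptosis and p53 genes had a median of 0.02, with Cdkn1a, the cell cycle inhibitor p21, at 0.13 (-0.05 to 0.31). Limma called 0 genes in these lists, as in those for proliferation and stress. Over the 26 lists other than cell type markers, 521 genes were tested, 0 passed, and 8 had an unadjusted limma p under 0.05, beside 3.48% of all genes tested. With the experiment as a block 29 of them did (5.57%), beside 5.11% of all genes. By list, this block share was 22.2% for interferon-stimulated genes, 17.4% for eicosanoid genes (4 of 23) and 15.4% for osteoclast genes (2 of 13). It was 15% for PPAR targets and for nitric oxide genes (3 of 20 each) and 13% for pro-inflammatory cytokines (3 of 23). Every other list was at 11.1% or less. Of the lists above that share, all but the interferon-stimulated one held such genes of both signs.

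The genes with the smallest p were mostly close to the floor. They are the 10 higher and the 10 lower genes with the smallest p among named genes whose sign was the same in each experiment, and none passed. 19 of the 20 had a vehicle mean under 6, and 6 had a group mean below the floor. Their sizes ran from 0.30 to 0.85. Because p chose them, their lack of overlap between groups, in 20 of 20, supports nothing.

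Fam163b had the largest difference of the 10 on the higher side, at 3.52, 2.89 and 3.12 with vehicle against 4.09, 4.06 and 3.94 with both compounds. The difference was 0.85 (95% interval 0.52 to 1.19, limma adjusted p = 1, and 0.769 with the experiment as a block). Shd, an SH2 adaptor, followed at 0.81 (0.38 to 1.25), then Ppbp, a platelet chemokine precursor, at 0.68, Trim43a at 0.62 and Serpinb6c at 0.58. Gpihbp1, which carries lipoprotein lipase across capillaries, differed by 0.45, Cyp2c23, a cytochrome P450, by 0.41, Arhgap27os3 by 0.37 and Pdzd4 by 0.36. Ppbp and Trim43a had a vehicle mean below the floor, and 2 of the 3 vehicle values of Fam163b lay below it, so that the size of these differences has no firm base.

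Ifitm2 was the 1 gene of the 20 with a vehicle mean above 6. This interferon-induced membrane protein blocks the entry of enveloped viruses. It measured 9.33, 9.18 and 9.43 with vehicle and 9.66, 9.58 and 9.71 with both compounds. All combined arrays lay above all vehicle arrays, the spread within each group was small, and the difference was 0.33 (95% interval 0.14 to 0.53, limma adjusted p = 1, and 0.787 with the experiment as a block), 1.26-fold higher. It was not a member of the interferon-stimulated list, and its sign was the opposite of that list's median.

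On the lower side, Hcst, the signalling adaptor DAP10, measured 5.23, 5.23 and 5.23 with vehicle and 4.54, 4.67 and 4.82 with both compounds. The vehicle arrays were almost identical, and the difference was -0.55 (95% interval -0.79 to -0.31, limma adjusted p = 1). The olfactory receptors Olfr955 and Olfr114 differed by -0.85 and -0.65 with combined means below the floor. Cldn11, a tight junction protein, differed by -0.52 (-0.81 to -0.23), Lypd3 by -0.51 (-0.75 to -0.26; -0.27 as the mean of its 2 probe sets), Lmod1, an actin nucleator of muscle, by -0.47, Plekha7, a junction protein, by -0.41 and Dact1, a modulator of Wnt signalling, by -0.30 (-0.19 as the mean of its 2 probe sets). Pabpc4l, at -0.46, and Plg, plasminogen, at -0.43, had combined means below the floor.

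Neat1, the long noncoding RNA that builds paraspeckles, was added after its values were seen, as 1 of the 2 genes with a vehicle mean of at least 8 that differed by more than 0.5. The other was Snora44, a small nucleolar RNA. Neat1 measured 9.34, 9.41 and 9.48 with vehicle and 10.23, 10.36 and 9.82 with both compounds. Every combined array lay above every vehicle array, and the excess was 0.89 and 0.94 in experiments 1 and 2 and 0.34 in experiment 3. The difference was 0.72 (95% interval 0.23 to 1.22, limma adjusted p = 1), 1.65-fold higher, and its interval was wide for a gene of this level. Cells without LPS measured 9.56 ± 0.428 (SD, n = 3), and the vehicle arrays fell within 1 SD of that mean.

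The single compounds, at 5.0 µM, can be set beside the combined treatment, at 2.5 µM of each, only as values, because the doses differ and all 3 comparisons use the same vehicle arrays. Mnd1, which pairs with Hop2 in meiotic recombination, was the 1 gene called for 13-HDHEA alone. It measured 4.19, 4.22 and 4.42 with vehicle and 3.86, 4.10 and 4.23 with both compounds. The combined arrays were lower in each experiment and overlapped the vehicle arrays, and the difference was -0.21 (95% interval -0.48 to 0.06, limma adjusted p = 1). Against the same vehicle arrays, 13-HDHEA alone differed by -1.35 (-1.63 to -1.08) and 16-HDHEA alone by -0.25 (-0.52 to 0.03). The interval for the combined treatment thus did not reach the size measured with 13-HDHEA alone at its higher dose. Of 22 meiotic and homologous recombination genes tested, 0 passed for the combined treatment, with a median of 0.03.

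Other named genes had these values for 13-HDHEA alone and 16-HDHEA alone. Ifit1 differed by -0.46 and -0.29, and the interferon-stimulated list had medians of -0.11 and -0.07, beside -0.50 and -0.16 for the combined treatment. Plin2 differed by 0.36 and 0.22, Alox5 by 0.43 and 0.41, Ltc4s by 0.49 and 0.33, Ifitm2 by 0.31 and 0.30, and Neat1 by 0.87 and 0.50. Fam163b differed by 0.62 and 0.34, and Hcst by -0.22 and 0.02. Nos2 differed by -0.21 and -0.22, Tnf by -0.07 and -0.04, Il1b by 0.01 and 0.03, and Il6 by -0.19 and -0.01. A vehicle array that lies high or low moves all 3 of these differences the same way, so their likeness is no independent support.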

How the data were processed

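Total RNA of RAW264.7 cells was hybridised to Affymetrix whole-transcript arrays, 3 in each of 5 groups, and groups and replicate numbers came from the sample titles. The authors deposited 1 log2 value per probe set and array, made with RMA per the submitters' processing notes. The sources used here do not give its version, the chip definition or the build. Quantile normalization within RMA hides a shift shared by most genes. Of 41345 probe sets, 23521 had 1 gene symbol, 1814 had several and 16010 were not listed in the platform table, and 23328 of those with 1 symbol matched RefSeq by gene identifier. The probe set with the highest mean over the 15 arrays was kept for each of 22180 genes. 15468 were tested, those above the array's 40th percentile in at least 3 arrays. Limma 3.58.1 in R 4.3.3 fitted group means over all 15 arrays (10 residual degrees of freedom, 8 with the experiment as a block) with two-sided tests, Benjamini-Hochberg adjustment over all genes tested and a threshold of 0.05. Intervals are 95% intervals from that fit. The fit was tested on simulated data drawn without an experiment effect, and the coverage of its intervals was not tested.

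The labels tie each replicate number to its own experiment, so the numbers pair the arrays. Once group means were subtracted, same-numbered arrays correlated at 0.0835 to 0.404 in 30 pairs, above 0.1 in 28, and 15 of 15 arrays correlated best with their own number. The number of arrays limits the precision.

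Genes named are up to 10 a direction with the smallest p among those of one sign in all 3 experiments (no predicted genes, small RNAs or unnamed models), the 4 smallest p at most in a list, and always Mnd1, Cnr2, Hmox1, Ccl2, Ptgs2, Nos2, Il1rn, Il10, Il6, Il1b and Tnf. These p come from the fit without the experiment block. Neat1, Snora44 and Cmpk2, and the interferon-stimulated genes shown for their promoters, were added after their values were seen. The arrays, the 31 lists and the rules were chosen with earlier results of these data known. Promoter sequence came from RefSeq, where 12028 of the 15468 genes had an entry. Alternatives covered the block, the arrays fitted, the filter, the normalization, eBayes options, array weights, the choice of probe set and each replicate left out.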

Additional observations from a re-analysis of the deposited data

How the results depend on the processing

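Limma called 0 genes higher and 0 lower under each of the 17 alternatives run, 16 planned and 1, the replicate block with a 60th percentile filter, chosen after seeing the data. With the replicate block, which pairs the arrays by experiment, the smallest adjusted p was 0.769, and with that block and the stricter filter 0.744. Without 1 vehicle or combined array it ranged from 0.181, for Fam163b without the vehicle array of experiment 1, to 1. The block left every difference as it was and changed no call. Of 97 named genes, Cmpk2 not among them, 7 changed sign under some alternative, in 15 of 1603 values. With array weights Ccl2 was at -0.004664 and Il1b at -0.005169, and with quantile normalization repeated Ccl2 was at -0.01195. Leaving out 1 array gave -0.0214 to 0.04004 for Ccl2, -0.1937 to 0.01635 for Hmox1, -0.06322 to 0.1147 for Il1b, -0.1733 to 0.03037 for Il6, -0.005339 to 0.145 for Ptgs2, -0.4456 to 0.07022 for Rsad2 and -0.105 to 0.01592 for Tnf; the cause was not tested. Leaving out 1 array moved 60 of the 97 named differences by over 1.5 times, none of them called. Each fit with 1 array left out had no experiment block and kept the array paired with it. Its values thus include the spread between experiments. Ifit1 ran from -0.715 to -0.265 in these fits, beside -0.53, -0.56 and -0.40 within experiments 1, 2 and 3. Of 525 list medians under alternatives, 41 in 15 lists moved by more than their spread between experiments. The interferon-stimulated median ranged from -0.219 to -0.0996 without 1 array and from -0.157 to -0.109 under the other alternatives. Signal near background limits the genes of low value, where the 95% interval lay within 0.5 of zero for 60.7% of those under 5.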
